A study of Salvelinus alpinus with 144 samples.

Results

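RNA polymerases I, II and III transcribe nuclear genes: Pol I makes the large ribosomal RNA precursor, Pol II makes messenger RNAs and many small nuclear RNAs, and Pol III makes transfer RNAs and other short RNAs. General initiation factors place the polymerases at promoters, Mediator carries signals from enhancer-bound factors to Pol II, and Integrator cuts nascent transcripts and ends transcription of many Pol II genes. Spt factors help the polymerase through chromatin or belong to chromatin-modifying coactivators. All cells use these complexes, and demand for them is known to be high in dividing and growing cells.

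The genes described here are those named for a subunit of these complexes. They were chosen by name, with earlier results of these data known. Rows were taken whose symbol starts with polr1, polr2, polr3, gtf2 or gtf3, or with med, taf, ints or supt followed by a digit. They also had to have at least 10 reads over the 72 mRNA libraries. Of 53 matching names, 52 passed that minimum and ints6 did not, with 4 reads in all. The 52 stand among 40311 genes with at least 10 reads and 42433 genes in the table. They comprise 3 Pol I, 2 Pol II, 4 Pol III and 2 shared polymerase subunits, 11 core Mediator subunits and 1 of its kinase module (med13), 2 TAFs (TBP-associated factors) of TFIID, 3 of the Pol I selectivity factor and taf6l, 3 Pol II initiation factors, 5 TFIIH, 3 TFIIIC, 8 Integrator and 4 Spt genes. The large Pol II subunits polr2a and polr2b were not among the matching names and were not analysed here. Gene names are those of the authors' annotation. Salmonids carry many near-identical gene copies from a genome duplication, and reads that a named gene shares with such a copy are uncertain.

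The embryos were Arctic charr (Salvelinus alpinus), offspring of wild-caught small benthic (SB) and planktivorous (PL) charr of Lake Thingvallavatn. The cross-types, with the mother first, were the reciprocal hybrids SBxPL and PLxSB and the pure crosses SBxSB and PLxPL, each with 3 families. From each family, 3 sibling embryos were sampled at 200 and 3 at 150 tau-somites (τs, a measure of developmental age that accounts for temperature), which gives 9 embryos in each of 8 groups. All were reared untreated in a common tray, and RNA came from whole embryos before hatching, so fewer cells of a type and less RNA per cell cannot be told apart. At 150 τs the pharyngeal skeleton begins to form, and at 200 τs most head cartilages are present. Levels are given as CPM, a gene's read count scaled to the size of its library, after TMM normalisation, which also corrects for library composition. Levels of different genes are not compared, since gene lengths were not used. A gene was called where edgeR's quasi-likelihood test gave a Benjamini-Hochberg adjusted p under 0.1 over all 40311 genes. Siblings share parents, so each main count is also given from a fit on family sums (3 against 3) where it moved. Both ages came from the same families, but the main and family-sum fits had no term for family, so that pairing was not used.

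Total counts ranged from 11969598 to 17133123 per library (median 15922750). The libraries farthest from their group mean over all genes were both from PLxSB family 3, embryo B at 200 τs and embryo C at 150 τs. No pair of libraries in a group was identical. Few of the fixed cell-type markers were found by name: mcm7 for proliferation, mylpf, neb and ttn for skeletal muscle, snap25 for neurons, matn1 and col11a2 for cartilage, and 0 of 6 for red blood cells.

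From 150 to 200 τs, transcription genes fell in every cross-type. The summed level of the 52 genes averaged 1255 ± 120 CPM at 200 τs and 1692 ± 87.2 CPM at 150 τs in SBxPL (SD, n = 9 each). In PLxSB it averaged 1401 ± 114 CPM at 200 τs and 1744 ± 94.6 CPM at 150 τs. In SBxSB the means were 1332 ± 77.6 CPM at 200 τs and 1721 ± 72.3 CPM at 150 τs, and in PLxPL 1292 ± 94.6 CPM at 200 τs and 1679 ± 32.1 CPM at 150 τs. The embryos of the 2 ages did not overlap in SBxPL, SBxSB and PLxPL. In PLxSB 1 embryo at 200 τs, family 3 embryo B with 1698 CPM, lay within the range at 150 τs. Without the 2 libraries that stand apart, the PLxSB sums ran from 1330 to 1402 CPM at 200 τs and from 1644 to 1914 CPM at 150 τs.

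Gene by gene, 41 of the 52 fell in SBxPL, where 49.5% of all genes were called, 24.9% higher and 24.6% lower. In PLxSB 42 fell, where 44.3% of all genes were called, 23.2% higher and 21.1% lower. In SBxSB 34 fell, beside 45.9% of all genes called, 23.3% higher and 22.6% lower. In PLxPL 44 fell, beside 49.4% of all genes called, 25.5% higher and 23.8% lower. Among genes with a mean of at least 1 CPM, which all members but gtf2f2 had, the share called lower was 31.3% in SBxPL, 27% in PLxSB, 29% in SBxSB and 30.4% in PLxPL. None of the 52 rose in any cross-type in edgeR or in DESeq2, and 0 had a higher value at 200 τs with an unadjusted p under 0.05. The median log2 change, 200 over 150 τs, was -0.44 in SBxPL, -0.29 in PLxSB, -0.38 in SBxSB and -0.39 in PLxPL, beside medians between 0.0009 and 0.0101 over all genes tested. In 28 of the 52 genes (53.8%) the fall was called in all 4 cross-types, as it was in 13.4% of all genes and in 18% of genes with a mean of at least 1 CPM. Another 13 fell in 3 cross-types, 4 in 2, and 2 in 1. On family sums, 39 fell in SBxPL, 38 in PLxSB, 32 in SBxSB and 40 in PLxPL. Of all genes, 17.5% to 19.7% were called lower there, and 38.3% to 43.4% in either direction. In fits of 1 embryo letter alone (3 against 3), 5 (SBxSB, letter C) to 39 (SBxPL, letter A) of the 52 were called lower, beside 4.38% and 16.2% of all genes in those fits.

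**Figure D1:**
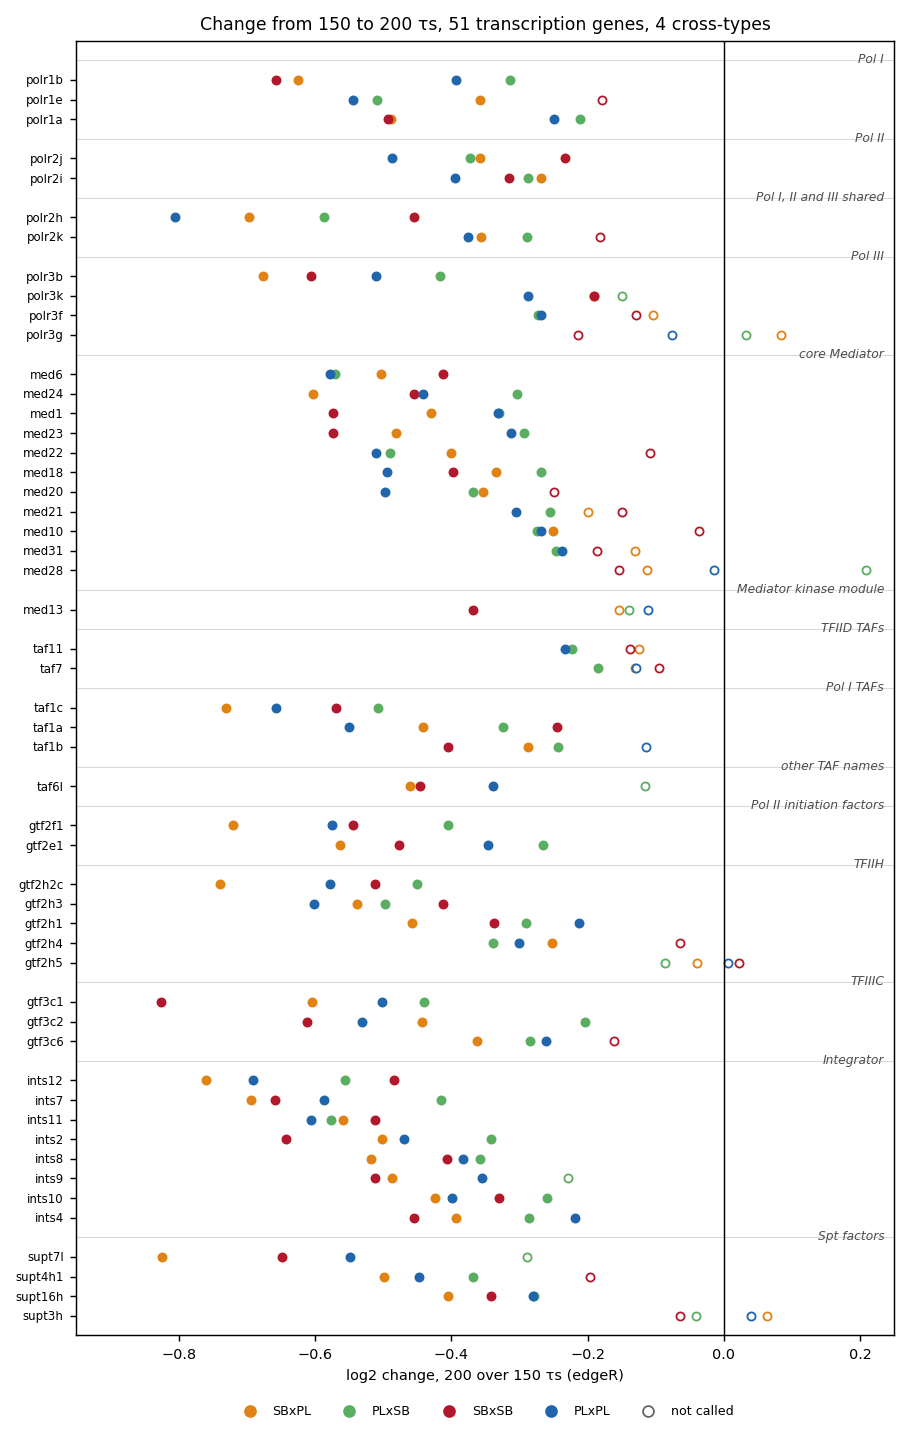
The log2 change from 150 to 200 τs (x axis, edgeR, 200 over 150) is plotted for 51 transcription genes (y axis, grouped by complex), with 1 point per cross-type, filled where the change was called and open where it was not. gtf2f2, with 89 reads in all, is not drawn. Almost every point lies left of 0, and every filled point does.

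Among the polymerase subunits, the falls were spread over all 3 enzymes. polr2h, a subunit shared by Pol I, II and III, had the strongest mean change of the 52 (log2 -0.64, or 35.6% lower). In SBxPL it had 18.6 to 44.3 CPM at 200 τs (median 30.5), against 37.8 to 56.9 CPM at 150 τs (median 49.9). In PLxPL it had 19.2 to 32.3 CPM at 200 τs (median 29.8), against 35.6 to 56.8 CPM at 150 τs (median 46.8). The 2 ages overlapped in SBxPL and were apart in PLxPL, and the change was called in all 4 cross-types, from log2 -0.45 in SBxSB to -0.80 in PLxPL. Of the other shared subunit, polr2k, the fall was called in 3 cross-types.

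All 3 Pol I subunits fell in at least 3 cross-types, led by polr1b, one of the catalytic subunits (mean log2 -0.50). It had 15.1 to 23.2 CPM in SBxPL at 200 τs, against 25 to 32.2 CPM at 150 τs, and the 2 ages did not overlap. In PLxSB, SBxSB and PLxPL its embryos of the 2 ages overlapped. Both Pol II subunits, polr2j (-0.36) and polr2i (-0.32), fell in all 4. Pol III was mixed. polr3b, a catalytic subunit, fell in all 4 cross-types (mean log2 -0.55), polr3k in 3 and polr3f in 2. polr3g was called in none, with changes from -0.21 to 0.08.

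Integrator was the most uniform of the larger groups: 7 of its 8 genes fell in all 4 cross-types, and ints9, the partner of the endonuclease subunit, fell in 3. ints12 changed most (mean log2 -0.62, or 35.1% lower). It had 19.3 to 30.1 CPM in PLxSB at 200 τs (median 22.4), against 28.9 to 41.4 CPM at 150 τs (median 33.3), so only the highest embryo at 200 τs reached the range at 150 τs. ints11, the endonuclease that cuts the transcript, fell by 0.56 on the log2 scale, with nearly the same change in each cross-type (-0.61 to -0.51).

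In core Mediator, 5 of 11 genes fell in all 4 cross-types, 3 in 3, 2 in 2, and med28 in none. med6, a subunit of the head that contacts Pol II, changed most (mean log2 -0.52). It had 8.48 to 11.6 CPM in PLxPL at 200 τs, against 12.3 to 18.9 CPM at 150 τs, with no overlap. med1, the subunit bound by nuclear receptors, also fell in all 4 (-0.42). med13, which ties the kinase module to the core, was called lower in SBxSB alone (log2 -0.37, adjusted p = 0.000513), with values from -0.15 to -0.11 in the other cross-types. That difference in time course was not called (time by cross-type, edgeR adjusted p = 0.814).

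Most general initiation factors of Pol II fell. gtf2f1, the large subunit of TFIIF, had 64.7 to 115 CPM in SBxPL at 200 τs (median 93), against 133 to 173 CPM at 150 τs (median 153). Its mean log2 change was -0.56, and its embryos of the 2 ages overlapped in PLxSB. gtf2e1, the large subunit of TFIIE, fell by 0.41 on the log2 scale, in all 4 cross-types. gtf2f2, the small TFIIF subunit, had 89 reads in all and was at 0 in 23 libraries, too few to follow. In TFIIH, which opens promoter DNA and also acts in DNA repair, 3 of 5 genes fell in all 4, with gtf2h2c first (mean log2 -0.57). Its embryos had 9.89 to 15.1 CPM in SBxPL at 200 τs, against 19.4 to 23.6 CPM at 150 τs, and they did not overlap. Of the 2 TFIID TAFs, taf11 fell in 2 cross-types and taf7 in 1, with mean log2 changes of -0.18 and -0.13.

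The factors that recruit Pol I and Pol III changed in the same direction. All 3 TAFs of the Pol I selectivity factor fell in at least 3 cross-types, with taf1c at -0.62 on average. taf1c had 8.91 to 15 CPM in SBxPL at 200 τs, against 17.3 to 22.4 CPM at 150 τs. All 3 TFIIIC genes fell in at least 3 cross-types, with gtf3c1, the large DNA-binding subunit, at -0.59. gtf3c1 was low, with 1.3 to 2.67 CPM in SBxSB at 200 τs, against 2.08 to 4.18 CPM at 150 τs.

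The Spt genes differed among themselves. supt16h, a subunit of the histone chaperone FACT, fell in all 4 cross-types by a small and even amount (mean log2 -0.33, range -0.40 to -0.28). In SBxPL its 9 embryos lay between 84.8 and 91.2 CPM at 200 τs, against 109 to 128 CPM at 150 τs, so the groups were well apart. supt4h1, a subunit of the elongation factor DSIF, and supt7l, of the SAGA coactivator, fell in 3 cross-types each. supt3h, also of SAGA, was called in none, with a mean log2 change of -0.0005 and values from -0.06 to 0.06. It had 15.5 to 22 CPM in SBxPL at 200 τs, against 14.3 to 19 CPM at 150 τs. gtf2h5, the smallest TFIIH subunit, was likewise called in none (-0.09 to 0.02). Members beyond the strongest of each complex were named for their roles or, as supt3h and gtf2h5, after their values were seen.

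**Figure D2:**
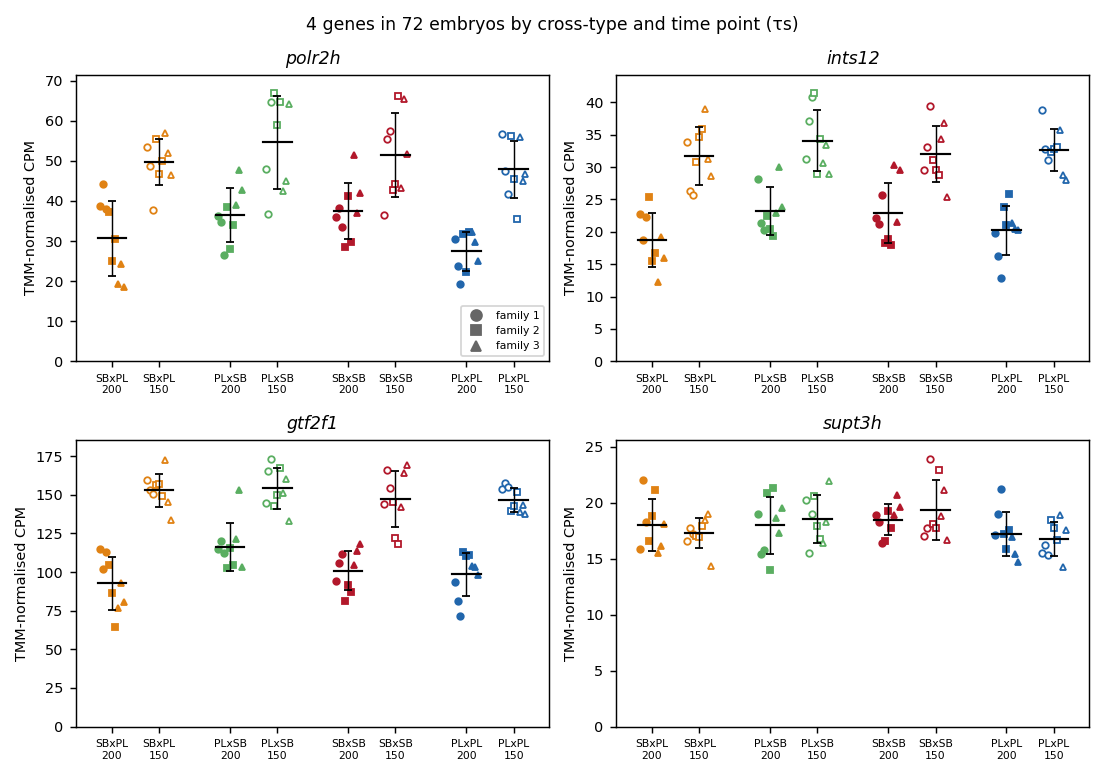
CPM (y axis) of polr2h, ints12, gtf2f1 and supt3h in the 72 embryos, with 200 τs (filled) left of 150 τs (open) in each cross-type, a symbol per family, and the mean with its SD as a bar. The first 3 genes are lower at 200 τs in all cross-types, and supt3h is at about the same level at both ages.

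Other genes of the transcription machinery, taken from a list of 54 names of which 20 were found (among them cdk9, cdk8, ubtf, cdc73, polrmt and tfam), behaved alike. Of the 20, 17 fell in SBxPL, 16 in PLxSB, 18 in SBxSB and 16 in PLxPL, and 1 rose in PLxSB, the elongation factor gene ell (log2 0.27 ± 0.07, adjusted p = 0.000981). Markers of cell makeup moved over the same interval, and their part in the falls was not tested. mcm7, of the replicative helicase, fell by 0.84 in SBxPL, 0.53 in PLxSB, 0.78 in SBxSB and 0.79 in PLxPL on the log2 scale. The 3 muscle markers rose in all cross-types, and their summed level in SBxPL ran from 6909 to 10650 CPM at 200 τs, against 1644 to 3688 CPM at 150 τs. matn1, of cartilage matrix, rose by between 5.92 and 6.19 on the log2 scale, from low medians of 2.35 to 2.59 CPM at 150 τs. The other cartilage marker, col11a2, rose by between 1.15 and 1.33, and snap25, of synapses, by between 1.09 and 1.49.

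The size of these falls was not found to depend on the cross. The test of time by cross-type called 0 of the 52 genes in edgeR and 0 in DESeq2, 5 had an unadjusted p under 0.05, and the smallest adjusted p was 0.693. Over all genes this test called 2 (0.00496%) at the adjusted limit, and the share at the unadjusted one is not given.

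At 200 τs, 14 of the 52 genes differed between SBxSB and PLxPL: 10 were higher in SBxSB and 4 lower. Over all genes, 17.6% were called, 8.7% higher and 8.85% lower. The median log2 difference, SBxSB over PLxPL, was 0.11 for the 52 and -0.03 for all genes. On family sums, 2 of the 52 were called, polr1e and polr2j, both higher in SBxSB, and 6.53% of all genes. In edgeR fits within 1 embryo letter at a time (3 against 3), 0 of the 52 were called, and the median was 0.09, 0.13 and 0.09 in letters A, B and C. The share of all genes called in these fits is not given, so the 0 is not read as particular to the 52. SBxSB family 3 weighed most: without it 6 of the 52 were called, 3 higher and 3 lower in SBxSB, and 6.59% of all genes. The lean towards SBxSB among the called genes was thus not seen without that family. Without PLxPL family 2, 7 were called (6 higher, 1 lower) and 11.3% of all genes. Without PLxPL family 3, 9 were called (6 higher, 3 lower) and 17.2% of all genes. The most that were called was 18 (10 higher, 8 lower), without PLxPL family 1, beside 13.4% of all genes.

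Of the genes higher in SBxSB, polr2h differed most. It had 28.5 to 51.5 CPM in SBxSB (median 37.1), against 19.2 to 32.3 CPM in PLxPL (median 29.8). The embryos overlapped but the family means did not (33.2 to 43.5 CPM in SBxSB, 24.4 to 29.1 CPM in PLxPL), and the log2 difference was 0.45 ± 0.14 (SE, adjusted p = 0.0201). Without SBxSB family 3 the adjusted p was 0.2, and on family sums 0.108. polr2j had 37.4 to 48.5 CPM in SBxSB (median 45.9), against 26.7 to 38.2 CPM in PLxPL (median 34.7). Only the lowest SBxSB embryo fell within the PLxPL range, and the log2 difference was 0.36 ± 0.10 (adjusted p = 0.0165).

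polr1e, a Pol I subunit that takes part in initiation and elongation, had 7.94 to 10.1 CPM in SBxSB (median 9.11), against 5.43 to 8.28 CPM in PLxPL (median 7.08). Its log2 difference was 0.36 ± 0.09 (adjusted p = 0.00866), and it was also called on family sums (adjusted p = 0.0616). med22 and med20, of the Mediator head, were higher by 0.35 ± 0.11 (adjusted p = 0.0322) and 0.30 ± 0.12 (adjusted p = 0.09996). med22 had 18.1 to 26.6 CPM in SBxSB, against 13 to 18.9 CPM in PLxPL. med20 had 19 to 28.7 CPM in SBxSB, against 13.9 to 23.4 CPM in PLxPL, and was no longer called without any one of 4 of the 6 families. The other genes called higher were supt4h1, gtf2h3, taf1a, med21 and polr3k, with log2 differences from 0.24 to 0.30.

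The 4 genes lower in SBxSB were taf1b, med13, gtf2h1 and ints4. taf1b, of the Pol I selectivity factor, had 10.6 to 12.6 CPM in SBxSB (median 12.2), against 11.9 to 18.3 CPM in PLxPL (median 14). Its log2 difference was -0.30 ± 0.09 (adjusted p = 0.0221), opposite in sign to that of taf1a in the same complex (0.28 ± 0.08, adjusted p = 0.0121). med13 had 32.8 to 44.6 CPM in SBxSB, against 41.4 to 52.7 CPM in PLxPL (log2 -0.29 ± 0.09, adjusted p = 0.0252). gtf2h1, a core TFIIH subunit, had 26.6 to 31.6 CPM in SBxSB, against 30.8 to 39.5 CPM in PLxPL (log2 -0.21 ± 0.06, adjusted p = 0.0232). ints4 was barely called (log2 -0.19, adjusted p = 0.0983) and its family means overlapped. It had 1 low embryo in SBxSB, at 16.4 CPM beside a median of 32.6 CPM in its group. Family means were apart for the other 13 of the 14 genes, as they were for 5290 of the 7075 called among all genes.

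**Figure D3:**
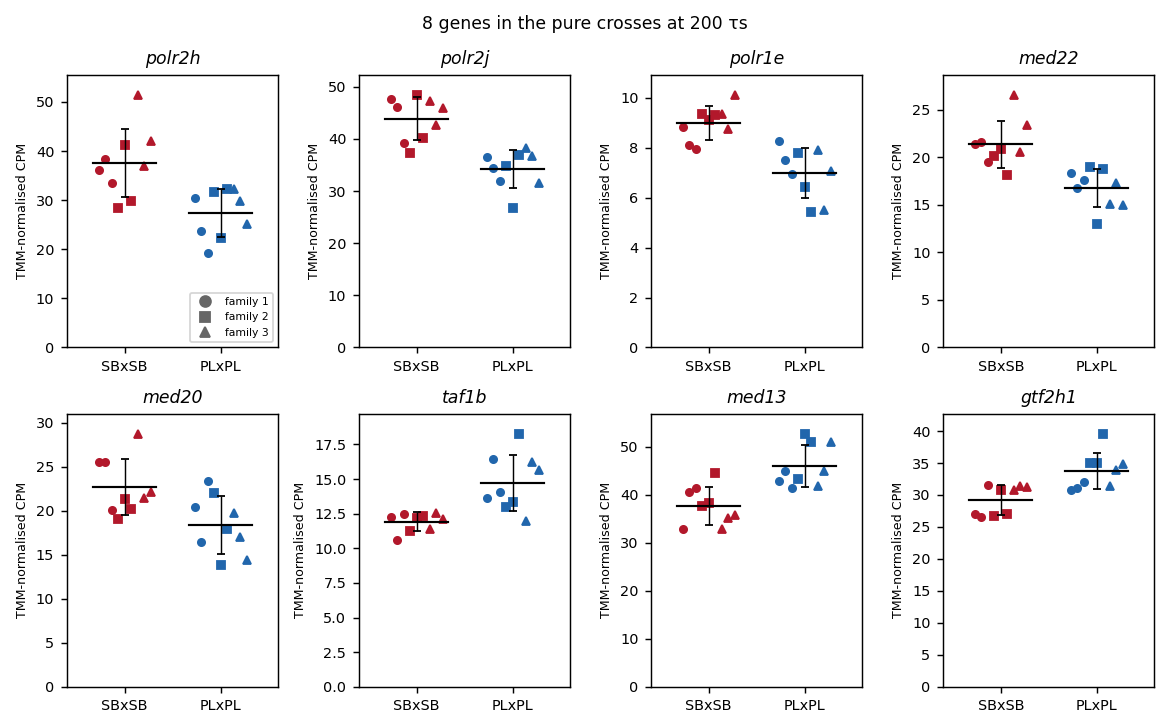
CPM (y axis) at 200 τs of the 5 genes most increased and the 3 most decreased in SBxSB relative to PLxPL, 9 embryos per cross with a symbol per family, and the mean with its SD as a bar. The 8 genes were chosen among those called with family means apart, so the lack of overlap of their family means follows from that choice. Single embryos overlap in all 8.

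Muscle markers differed in the same comparison, and their part in it was not tested. The log2 difference was -1.25 ± 0.26 for ttn (adjusted p = 0.00139), -1.21 ± 0.24 for neb (adjusted p = 0.000826) and -0.22 ± 0.17 for mylpf (adjusted p = 0.423). The summed level of the 3 ran from 3924 to 11160 CPM in SBxSB and from 7774 to 12580 CPM in PLxPL. mcm7, snap25, matn1 and col11a2 were not called, with differences from -0.19 to 0.06.

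At 150 τs, 0 of the 52 genes differed between SBxSB and PLxPL in edgeR or DESeq2, and 0.0372% of all genes were called. At an unadjusted p under 0.05 there was 1 of the 52, beside 1553 of all 40311 genes. The log2 differences of the 52 ran from -0.13 to 0.26. For polr2h the difference was 0.10 ± 0.13, for polr2j 0.11 ± 0.10, for polr1e -0.0039 ± 0.09 and for taf1b -0.01 ± 0.09. The change of the morph difference between the ages was called for 0 of the 52 in edgeR and in DESeq2, and 8 had an unadjusted p under 0.05. For taf1a that change was 0.31 ± 0.11 (adjusted p = 0.273), for polr1e 0.37 ± 0.13 (adjusted p = 0.289) and for med22 0.40 ± 0.16 (adjusted p = 0.318). It is therefore not shown that these genes differed more at 200 than at 150 τs. Over all genes, 14 (0.0347%) were called at the adjusted limit, and the share at the unadjusted one is not given.

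The hybrids were set against each pure cross. At 150 τs, 0 of the 52 genes were called in any of the 4 comparisons in edgeR or DESeq2, with 3 genes at an unadjusted p under 0.05 for SBxPL against SBxSB, 0 against PLxPL, and 2 for PLxSB against SBxSB and 1 against PLxPL. The shares of all genes called were 0.159%, 0.124%, 0.0447% and 0.0223%, in that order, at the adjusted limit and not the unadjusted one. At 200 τs, 1 was called: polr1b was higher in PLxSB than in SBxSB, with 15.7 to 27 CPM in PLxSB (median 23.3), against 15.1 to 22 CPM in SBxSB (median 17.4). Its log2 difference was 0.33 ± 0.11 (adjusted p = 0.0741), and 4.3% of all genes were called in that comparison. Without the 2 libraries that stand apart its adjusted p was 0.158, on family sums 0.195, and it stayed called without only 1 of the 6 families, PLxSB family 3 (adjusted p 0.0791 to 0.224). DESeq2 called 5 genes there: polr1a, polr1b, taf6l and gtf2h1 higher and polr1e lower in PLxSB. With the embryo letter as a replicate block, edgeR called 3: polr1b, gtf2h1 and polr1e. The shares of all genes called in the DESeq2 and letter-block fits are not given here, so these counts are not set against all genes. In PLxSB against PLxPL at 200 τs edgeR called 0 of the 52, beside 0.38% of all genes, while DESeq2 called 1, med18. At an unadjusted p under 0.05, a looser limit than that of the share called, there were 13 of the 52. The share of all genes at that looser limit is not given, so this count is not read as particular to the 52. Without PLxPL family 2 or without family 3, edgeR called 2 there, beside 1.01% and 0.913% of all genes.

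In SBxPL at 200 τs, edgeR and DESeq2 called 0 of the 52 genes against SBxSB and 0 against PLxPL. The shares of all genes called in edgeR were 0.0794% and 0.154%, in that order. At an unadjusted p under 0.05, a looser limit, there were 11 of the 52 against SBxSB, beside 4981 of all 40311 genes. Against PLxPL there were 9 of the 52 at that limit, and the number of all genes is not given, so the 9 are not read as particular to the 52. SBxPL families differed widely. The mean of polr2h was 40.3, 30.9 and 20.7 CPM in SBxPL families 1, 2 and 3. Without SBxPL family 1, 13 of the 52 genes were called against SBxSB, 12 of them lower in SBxPL, along with 8.92% of all genes. Without SBxSB family 2, 3 were called against SBxSB, beside 3.38% of all genes. Without PLxPL family 1, 4 were called against PLxPL, beside 1.26% of all genes. The hybrid means of genes chosen for their difference between the pure crosses are given as a description. For polr2j the means at 200 τs were 38.4 CPM in SBxPL and 41.7 CPM in PLxSB, against 43.9 CPM in SBxSB and 34.2 CPM in PLxPL. For med13 they were 43.7 CPM in SBxPL and 42.8 CPM in PLxSB, against 37.7 CPM in SBxSB and 46 CPM in PLxPL.

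Embryos of a group also differed from each other in a shared way. After the group means were removed from log2 CPM, the first principal component held 37.2% of the spread of 51 genes (gtf2f2 left out). In the 36 hybrid embryos alone, the first component held 40.3%. At one end of this hybrid component were polr2h, polr2k, polr2j, polr2i, supt4h1, med31, med21, med20, gtf2h3 and taf11, which rose and fell together from embryo to embryo. At the other end were gtf3c1, med1, med23, supt7l, ints2, med13, polr1b, ints9, med28 and gtf3c2. These sets of 10, taken from the 36 hybrid embryos alone, differ in a few genes from the ends of the component over all groups. Loadings, which measure a gene's place on the component, computed in the hybrids and in the pure crosses had r = 0.917 across the 51 genes. The component over all groups was not particular to transcription genes. Across the 72 embryos its scores had r = 0.875 with the first component of 21835 other genes, from the same libraries, which held 16.8% of their spread. Transcript length, RNA quality and library composition were not tested as sources of this component, so it is not shown to be joint regulation.

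The place of genes along this component was correlated with their SBxSB and PLxPL difference at 200 τs. Across the 51 genes, the loading in hybrids had r = 0.868 with the log2 difference in the pure crosses, which are other embryos. Genes are not independent replicates, and all were measured in the same libraries. Of 29 genes with a positive loading in hybrids, 28 had a higher value in SBxSB, as did 3 of the 22 with a negative loading. The same r and counts were not computed for the other genes. The relation is therefore not shown to be particular to transcription genes. All 10 genes called higher in SBxSB had a positive loading, and of the 4 called lower, med13, taf1b and ints4 had a negative one. For the mean time change in hybrids, r with the same difference was -0.017.

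The balance of the sets of 10, as the mean log2 CPM of the first minus that of the second, differed among families. At 200 τs it was 0.82, 0.80 and 0.94 in the SBxSB families 1, 2 and 3, against 0.65, 0.15 and 0.40 in the PLxPL families. In SBxPL it was 0.83, 0.85 and 0.19, and in PLxSB 0.35, 0.61 and 0.88. The 3 SBxSB families were higher than the 3 PLxPL families. The sets were chosen on the hybrids' own spread, so a wide split among hybrid families follows from that choice and is not set against the pure crosses. At 150 τs the SBxSB families had 0.53, 0.72 and 0.41, against 0.47, 0.40 and 0.52 in PLxPL, and they overlapped.

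**Figure D4:**
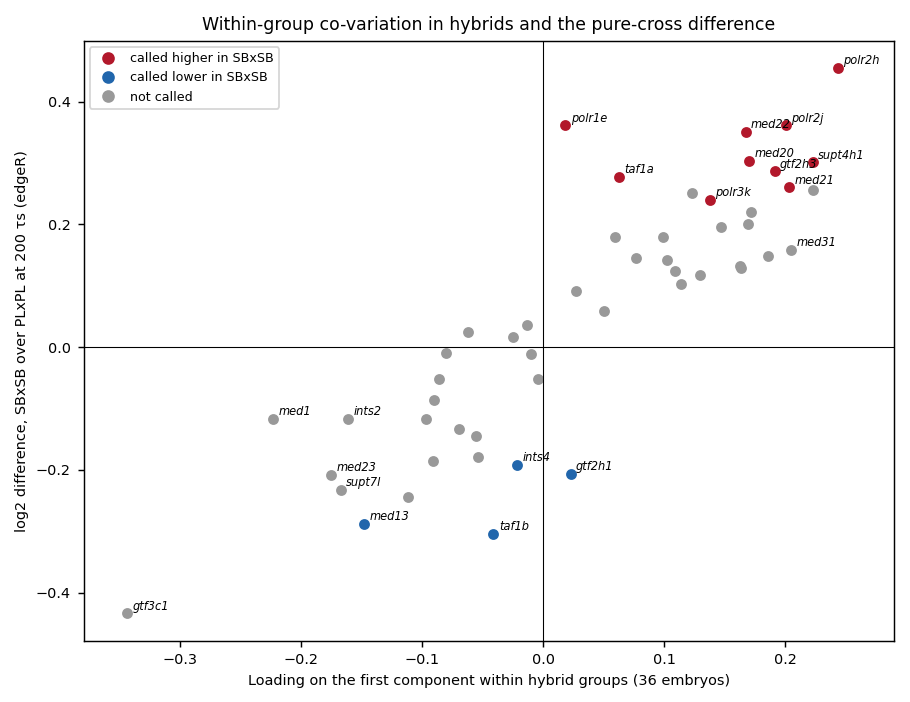
Each point is 1 of 51 transcription genes. The x axis is its loading on the first component of the spread within hybrid groups (36 embryos, no unit) and the y axis its log2 difference, SBxSB over PLxPL, at 200 τs (edgeR). The points lie along a rising band (r = 0.868), with gtf3c1 at the lower left and polr2h at the upper right. gtf3c1 had as few as 12 reads in a library.

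Variability among the embryos of a group was measured by the local coefficient of variation (LCV), the rank of a gene's CV among the 500 genes nearest in mean level, from 0 (least variable) to 100. It was computed for the 49 members with a mean of at least 100 normalised counts in every group, among 17044 such genes. As a set they were of ordinary variability: the median LCV, averaged over the 8 groups, was 50.1, and a set with no tendency would have 50. At 200 τs the median was 61.4 in SBxPL, 50.6 in PLxSB, 43.6 in SBxSB and 39 in PLxPL. At 150 τs it was 40.8 in SBxPL, 50.2 in PLxSB, 55 in SBxSB and 60 in PLxPL. No cross-type was thus lowest or highest at both ages. Median CVs of the members ran from 9.25% to 16.6% per group, beside 10.8% to 16.4% for all genes of that level.

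Single genes were spread over the whole range. The least variable were ints10 (mean LCV 12.8), ints8 (16.6) and supt16h (16.6). ints10, an Integrator subunit outside the catalytic module, had a CV of 3.17% in SBxPL at 150 τs, where its 9 embryos lay between 27.5 and 30.5 CPM. supt16h had a CV of 2.37% in SBxPL at 200 τs. Its LCV reached 67 in PLxSB at 200 τs, so the low rank did not hold everywhere. That group holds the outlying library of family 3 embryo B, with 134 CPM of supt16h beside a next highest of 99.4 CPM. The most variable were supt7l (91.9), polr2h (81.5) and med28 (78.9). supt7l had an LCV of at least 87.2 in all 8 groups, and its embryos ran from 7.52 to 19.6 CPM in PLxSB at 200 τs. With deviations taken from family means its mean LCV was 83.6. polr2h had an LCV of at least 71.2 in all 8 groups. By complex, TFIIH and the Pol I TAFs had low medians of the mean LCV (28.8 and 30.8), and the 2 shared polymerase subunits a high one (71.2).

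**Figure D5:**
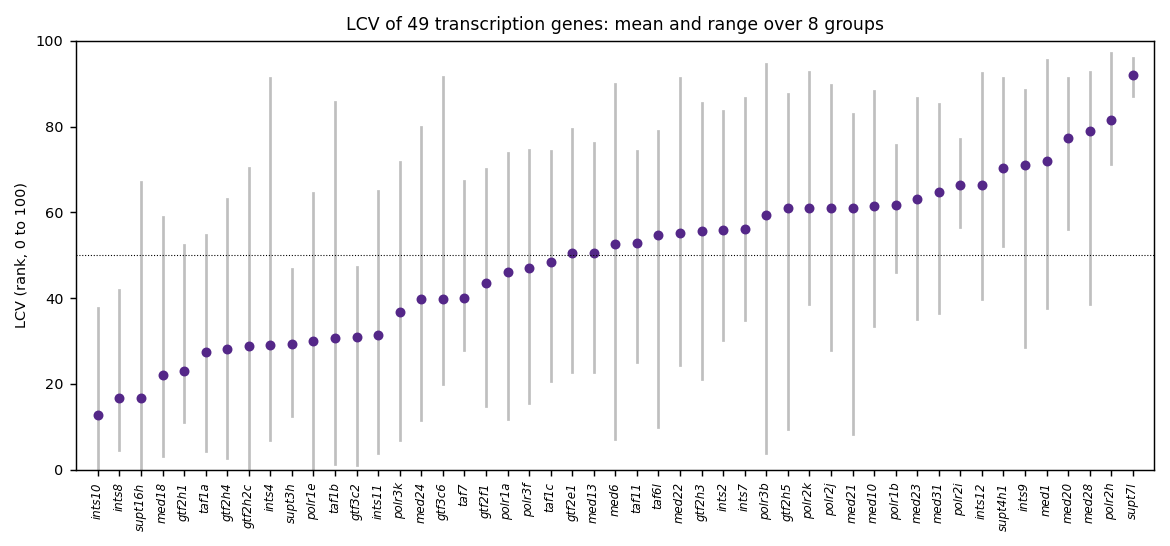
LCV (y axis, rank from 0 to 100) of the 49 genes with enough counts, ordered by their mean over the 8 groups (points), with the lowest and highest group as a line. The dotted line marks 50. supt7l is the only one of these genes whose line stays above 80.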

How the data were processed

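Whole-embryo mRNA was measured in 72 libraries. Per the labels and methods, reads were trimmed and filtered by the sequencing provider, and the authors aligned them with STAR to a Salvelinus genome and counted them per gene with featureCounts. They deposited raw counts, which are whole numbers without normalization, and strand use and tool versions are not given in the sources used here. The small RNA files were not used. A gene entered the tests with 10 or more reads summed over the 72 libraries.

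Analyses were run in R 4.3.3. TMM factors and the quasi-likelihood F-test of edgeR 4.0.16 were applied to all 72 libraries with 8 group means, 2-sided, with Benjamini-Hochberg adjustment over 40311 genes and a threshold of 0.1. DESeq2 1.42.0 was an alternative. Others were RLE and upper-quartile factors, 2 other filters, a block for the embryo letter, sums or means per family, only the groups compared, a threshold of 0.05, and each family left out. Leaving out 2 libraries and fitting each letter alone were chosen after seeing the data. The letter is called sequencing batch in the labels, but the study's methods describe batches for the small RNA libraries only, so it may mark none in the mRNA data. Same-letter libraries had a mean correlation of 0.00815 after removal of group means, against -0.0281 for different letters. The letters pair samples only through that label. The scripts were tested on simulated data.

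Members and lists were chosen with earlier results of these data known. Genes named were, per complex, the strongest change with age called the same way in all 4 cross-types; between pure crosses at 200 τs, the 5 most increased and 5 most decreased among those called with family means apart; elsewhere the 2 most changed in each direction, or all called where 5 or fewer; the 3 called in an interaction test with the smallest p; and the 3 lowest and 3 highest LCVs. A minimum of 1 CPM applied. Over all libraries gtf2f2 had 89 reads and each other member at least 3126. In single libraries gtf3c1 had as few as 12 reads and polr3g as few as 22. Counting error per embryo is therefore not small for these genes.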

Additional observations from a re-analysis of the deposited data

Results flagged for a closer look

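Of 168 sets of 9 embryos (21 named genes in 8 groups), 9 had an embryo whose gap to its nearest neighbour exceeded Dixon's 95% limit, and chance alone does so in about 1 in 20 groups. In PLxSB at 200 τs, the library of family 3 embryo B was high for 5 of these genes, with 153 CPM for gtf2f1 (next highest 121), 22 CPM for gtf2h2c (next 16.4), 134 CPM for supt16h (next 99.4), 23.5 CPM for taf1b (next 13.9) and 28.3 CPM for med28 (next 17.7). It is the library farthest from its group mean over all genes. In the same family and age, embryo C was low for polr1b (15.7 CPM, next lowest 21.9) and embryo A high for med20 (28.8 CPM, next highest 22.9). The remaining cases were a low taf1b in SBxPL family 1 embryo B at 200 τs (10.7 CPM, next lowest 12.4) and a high gtf2h1 in PLxPL family 2 embryo C at 200 τs (39.5 CPM, next highest 35.1).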

How the results depend on the processing

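No count, median or named gene recomputed under the alternatives reversed its direction, apart from the calls of med28 and gtf2f2 given here. Signs of the other genes were not followed. With the embryo letter as a replicate block, PLxSB against SBxSB at 200 τs had 3 genes called, and no other count moved by over 1.5 times. That comparison had 5 with DESeq2, 5 with one mean per family, 2 with a mean of at least 10 reads, 2 with upper-quartile factors, 2 in letter B, and 0 at an adjusted p under 0.05, on family sums, in letter A, in letter C and without the 2 farthest libraries. SBxSB against PLxPL at 200 τs had 9 at an adjusted p under 0.05, 2 on family sums and 0 in each of letters A, B and C. SBxPL against SBxSB had 2 with one mean per family, and PLxSB against PLxPL had 4 with one mean per family and 1 with DESeq2. The change of the morph difference had 3 in letter A. On family sums, 0.933% of all genes were called in PLxSB against SBxSB at 200 τs. In SBxSB against PLxPL at 200 τs, 6.53% were called on family sums. Shares of all genes for the other settings of these hybrid and pure-cross counts are not given, so those counts are not set against all genes. In single letters (3 against 3), calls with age numbered 22 in letter B and 15 in C for SBxPL, beside 21.1% and 16.1% of all genes. For PLxSB they numbered 22, 6 and 19 in letters A, B and C, beside 22.1%, 15.7% and 20.6%. For SBxSB there were 5 in letter C, beside 13.4%. For PLxPL there were 24 in letter B and 13 in C, beside 25% and 18.8%. The 6 of PLxSB letter B include med28, called higher there (0.59, adjusted p = 0.0689), and without the 2 farthest libraries gtf2f2, with 89 reads, was called higher in PLxSB (2.00, adjusted p = 0.0329).

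When single families were omitted, the falls ranged from 33 to 44 in SBxPL, 28 to 43 in PLxSB, 29 to 37 in SBxSB and 32 to 40 in PLxPL. In those fits 33% to 46.3% of all genes were called in either direction. SBxSB against PLxPL at 200 τs ranged from 6 to 18, beside 6.59% to 19.1% of all genes. SBxPL against SBxSB ranged from 0 to 13, beside 0.0223% to 8.92%, and SBxPL against PLxPL from 0 to 4, beside 0.0397% to 1.26%. PLxSB ranged from 0 to 2 against SBxSB, beside 1.93% to 4.68%, and from 0 to 2 against PLxPL, beside 0.0397% to 1.01%. The median LCV ranged from 49.45 to 51.9. With 89 reads in all, gtf2f2 was left unmeasured, and the reason for its low count was not tested.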
